A study of Mus musculus with 42 samples.

Results

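The response of the liver to the medium dose of BkF, short for the polycyclic aromatic hydrocarbon benzo(k)fluoranthene, was described from 7 two-colour microarrays, 3 of medium-dose and 4 of vehicle livers, out of 42 arrays in the series. The members are the liver arrays whose titles carry the medium-dose label D2 (mice 11, 12 and 13) and the vehicle label D0 (mice 1, 2, 3 and 4). All animals were males of the Muta™Mouse strain, a lacZ transgenic mouse used in mutation assays, aged about 11 weeks. The D2 mice had received 50 mg/kg-bw/day BkF in olive oil by oral gavage for 28 days, and the D0 mice olive oil alone. The left liver lobe was collected 72 hours after the last dose. A low-dose (D1, 25 mg/kg-bw/day, 2 livers) and a high-dose group (D3, 100 mg/kg-bw/day, 4 livers) entered the same model and are quoted beside the medium dose. According to the study's methods some animals of the BkF groups were lost to gavage accidents. The low- and the medium-dose group each hold a further mouse with lung and forestomach arrays but no liver array, for a reason not stated.

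Polycyclic aromatic hydrocarbons such as BkF bind the aryl hydrocarbon receptor (AhR), a cytosolic receptor that moves to the nucleus, pairs with ARNT and activates genes whose regulatory DNA carries the letters GCGTG. The classical targets are the Cyp1 enzymes, which oxidise the hydrocarbon itself, and the AhR repressor Ahrr, which closes the loop. In liver, AhR ligands also induce conjugation enzymes and the fatty acid transporter Cd36, and many mouse liver genes differ between the sexes through the pattern of growth hormone secretion.

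Every array compared a liver with Universal Mouse Reference RNA, a pool from 11 cell lines, so each value below is a log2 ratio of liver over reference after loess normalization, and a change is the medium-dose mean minus the vehicle mean. Hepatocyte markers were present on all 7 arrays. Albumin (Alb) lay between 7.06 and 7.41, and transthyretin (Ttr), the thyroid hormone carrier, between 7.60 and 8.06. The array of mouse 13 had 32106 probes well above background against 21362 to 25830 on the other liver arrays. For the 10 spike-in RNAs the D2 mean minus the D0 mean ran from -0.88 to -0.58, and their part in the results was not tested. All D0 arrays lay in column 1 of their slides and all D2 arrays in column 3, so slide column and dose cannot be told apart. The D2 livers differed among themselves. In mouse 11, 166 of 30468 probes lay more than 2-fold from the vehicle mean, against 1140 in mouse 12 and 646 in mouse 13.

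Promoters of 6 genes are shown because their genes led the AhR target list or passed the test with the core letters present. Each is the 250 bases before the gene's start in RefSeq (build GRCm38.p6), 5′ to 3′ on the gene's strand, and capitals mark GCGTG or its reverse complement CACGC.
Cyp1a1, chr9:57697363-57697612, plus strand: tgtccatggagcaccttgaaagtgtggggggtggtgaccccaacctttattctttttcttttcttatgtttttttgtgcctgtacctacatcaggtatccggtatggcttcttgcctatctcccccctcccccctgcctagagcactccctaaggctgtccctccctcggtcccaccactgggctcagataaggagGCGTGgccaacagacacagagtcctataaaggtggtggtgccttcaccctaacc
Cyp1b1, chr17:79715062-79715311, minus strand: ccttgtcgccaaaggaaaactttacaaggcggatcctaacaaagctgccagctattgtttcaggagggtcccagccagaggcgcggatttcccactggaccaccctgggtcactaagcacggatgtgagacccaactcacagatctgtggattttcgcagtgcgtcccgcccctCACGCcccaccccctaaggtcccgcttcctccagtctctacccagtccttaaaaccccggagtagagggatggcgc
Ahrr, chr13:74292332-74292581, minus strand: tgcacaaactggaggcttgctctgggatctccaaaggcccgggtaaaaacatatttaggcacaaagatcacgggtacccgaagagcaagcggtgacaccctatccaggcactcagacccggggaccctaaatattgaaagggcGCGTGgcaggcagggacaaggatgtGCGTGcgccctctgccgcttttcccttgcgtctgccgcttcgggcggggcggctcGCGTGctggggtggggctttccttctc
Tiparp, chr3:65528197-65528446, plus strand: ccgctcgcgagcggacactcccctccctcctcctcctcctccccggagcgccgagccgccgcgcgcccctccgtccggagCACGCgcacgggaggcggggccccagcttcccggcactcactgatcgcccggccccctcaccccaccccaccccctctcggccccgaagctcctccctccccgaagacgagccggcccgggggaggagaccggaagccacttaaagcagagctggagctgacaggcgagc
Retsat, chr6:72598352-72598601, plus strand: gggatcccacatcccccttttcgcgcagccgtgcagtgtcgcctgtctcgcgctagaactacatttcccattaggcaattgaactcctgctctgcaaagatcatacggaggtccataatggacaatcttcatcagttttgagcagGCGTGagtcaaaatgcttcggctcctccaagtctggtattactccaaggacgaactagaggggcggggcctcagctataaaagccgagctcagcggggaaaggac
Mefv, chr16:3718125-3718374, minus strand: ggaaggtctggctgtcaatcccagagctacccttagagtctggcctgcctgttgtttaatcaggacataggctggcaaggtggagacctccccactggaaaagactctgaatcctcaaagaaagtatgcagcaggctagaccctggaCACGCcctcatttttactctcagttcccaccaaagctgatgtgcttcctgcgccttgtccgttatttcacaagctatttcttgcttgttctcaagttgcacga
GCGTG on either strand was present in 9250 of 32851 such windows (28.2%), and the longer TNGCGTG, which contains it, in 1347 (4.1%). The Ahrr window held 3 copies, 1 of them in the longer form, and each of the other 5 windows held 1. The windows of Nqo1 and Cyp1a2 held none. Of the 9 called genes with a window in the table, only Retsat and Mefv held the core, and none held the longer form. A match is a description of letters, and no match says only that these letters are not in this window.

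Which genes were differentially expressed at the medium dose was asked with limma, where a called probe had an adjusted p up to 0.05 and changed by 1.5-fold or more. Of 30468 probes 13 were called (0.0427%), 8 higher (0.0263%) and 5 lower (0.0164%). The higher probes were from Tuba8, Cd36, Adamdec1, Tlr12, Mefv, Csf2rb2, Ttc39a and Tcf4, and the lower ones from Slc13a2, Tff3, Retsat, Srgap3 and 1 unnamed probe. On all 13 probes the 3 D2 arrays lay entirely above or entirely below the 4 D0 arrays, which was true of 4.51% (above) and 4.76% (below) of all probes tested. Mouse 11 lay nearest to the vehicle mean on 10 of the 13 probes, and mouse 12 lay farthest from it on 10. The median change over all probes was -0.0056.

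**Figure D1:**
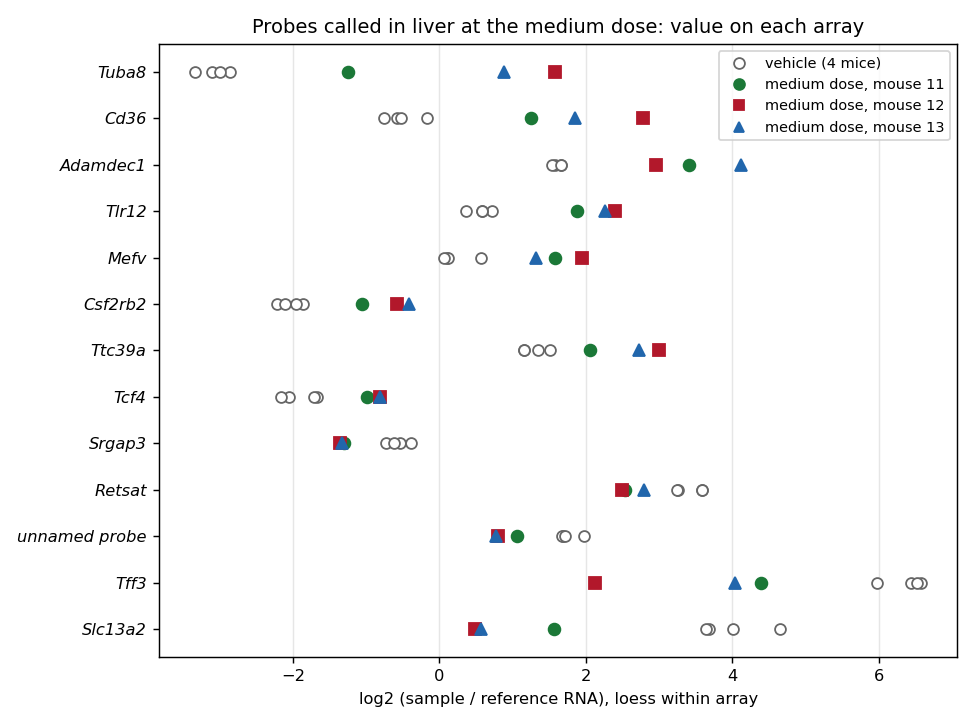
Log2 ratio of liver over reference RNA (horizontal axis) on each array for the 13 called probes (rows). Open circles are the 4 vehicle livers and filled symbols the 3 medium-dose livers. Within each row the groups are apart, and the green circle of mouse 11 is nearest to the vehicle values on 10 of the 13 rows.

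Tlr12 encodes an endosomal Toll-like receptor for protozoan profilin. Its log2 ratio was 0.72, 0.36, 0.58 and 0.58 in the vehicle livers and 1.87, 2.40 and 2.26 in mice 11, 12 and 13. The groups were far apart, and Tlr12 rose 3.06-fold (log2 change 1.62, SE 0.18, adjusted p 0.016), the smallest adjusted p of the comparison. It was called in 3 of the 7 fits that left out 1 array, and in the other 4 its adjusted p reached 0.098 at most. Adamdec1, a metalloprotease-like gene of tissue macrophages, had 1.66, 1.58, 1.53 and 1.66 in the vehicle livers and 3.40, 2.97 and 4.12 in the D2 livers. It rose 3.70-fold (1.89, SE 0.24, adjusted p 0.030), with mouse 13 highest. A dimmer Adamdec1 probe, well above background in 1 vehicle and 2 medium-dose livers, differed by 0.43 (adjusted p 0.35).

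Mefv encodes pyrin, an inflammasome sensor. Signal well above background was found in 1 of 4 vehicle and 3 of 3 D2 livers, and Mefv had 0.11, 0.12, 0.06 and 0.57 against 1.58, 1.95 and 1.32. It rose 2.64-fold (1.40, SE 0.21, adjusted p 0.046), and another probe differed by 0.35 (adjusted p 0.36). Csf2rb2, the receptor subunit that serves interleukin-3, is near-identical to Csf2rb, so its values are uncertain. It had -1.86, -2.21, -1.96 and -2.11 in the vehicle livers and -1.06, -0.58 and -0.41 in the D2 livers. Csf2rb2 rose 2.55-fold (1.35, SE 0.20, adjusted p 0.046), and a second probe differed by 0.30 (adjusted p 0.42). Tcf4, an E-protein transcription factor that dendritic cell precursors depend on, rose 2.05-fold (1.04, SE 0.14, adjusted p 0.037). Its vehicle values were -1.68, -2.06, -2.16 and -1.72 and its D2 values -0.99, -0.80 and -0.81. Another Tcf4 probe differed by 0.32 (adjusted p 0.32).

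Cd36, the scavenger receptor that takes up long-chain fatty acids and oxidised lipoproteins, had -0.57, -0.53, -0.17 and -0.76 in the vehicle livers. In mice 11, 12 and 13 it had 1.25, 2.78 and 1.85, so that the D2 values lay above all vehicle values. Cd36 rose 5.53-fold (2.47, SE 0.34, adjusted p 0.037). Retsat, the retinol saturase, fell by 0.81 (SE 0.12, adjusted p 0.046), from 3.59, 3.59, 3.26 and 3.25 to 2.53, 2.49 and 2.80. Its difference was -1.07 within slide 1 and -0.46 within slide 2. Slc13a2, a sodium-dependent citrate and succinate transporter best known from kidney, fell by 3.12 (SE 0.39, adjusted p 0.030). It had 4.00, 3.68, 4.66 and 3.64 in the vehicle livers and 1.56, 0.49 and 0.57 in the D2 livers, a fall on every D2 array.

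Tff3, a trefoil peptide secreted by mucosal and biliary epithelium, had 6.58, 6.45, 5.98 and 6.53 in the vehicle livers and 4.39, 2.12 and 4.04 in the D2 livers. It fell by 2.86 (SE 0.41, adjusted p 0.046), and mouse 12 was lowest. Tuba8, an alpha-tubulin, rose 11.1-fold (3.48, SE 0.52, adjusted p 0.046), the largest rise among the called probes. Of the vehicle livers 2 had signal well above background for it, at -2.86, -3.10, -2.99 and -3.33 over the 4 mice, and all D2 livers did, at -1.25, 1.58 and 0.89. The remaining calls were smaller. Ttc39a, a tetratricopeptide repeat gene, rose by 1.30 (SE 0.19, adjusted p 0.046) while its other probes differed by 0.94 and 0.17 (adjusted p 0.18 and 0.79). Srgap3, a GTPase-activating protein gene, fell by 0.77 (SE 0.12, adjusted p 0.046), with D2 values of -1.31, -1.36 and -1.33 in a narrow range, while its other probes differed by -0.36 and -0.16 (adjusted p 0.37 and 0.74). The probe A_55_P2177410, which has no gene symbol here, fell by 0.89 (SE 0.14, adjusted p 0.046).

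These calls rested on few arrays. Without mouse 11 there were 156 calls, which included all 13, and without mouse 12 there were 26, which included 5 of the 13. Without mouse 13 the count was 1 and none of the 13 was called. Without vehicle mouse 2, 3 or 4 the count was 0, with 2758, 2499 and 2712 probes at an unadjusted p under 0.05, and without vehicle mouse 1 it was 4. A fit that blocked on slide called only Tlr12 (adjusted p 0.044). Within slide 1 (mice 1, 2, 11 and 12) and slide 2 (mice 3, 4 and 13) Tlr12 differed by 1.60 and 1.68 and Cd36 by 2.57 and 2.31. The direction within each slide was fixed beforehand for all 13 probes, because their groups did not overlap. At the threshold itself, Srgap3 was the last probe inside (adjusted p 0.0461) and Pmm1, a phosphomannomutase gene, the first outside (change 1.02, adjusted p 0.0562, with 0.18 on its other probe).

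The 10 uncalled genes nearest to the threshold with groups apart were Pmm1 and those that follow. Cd74, the invariant chain that escorts MHC class II, had -0.58, -0.67, -0.94 and -0.94 in the vehicle livers and 1.47, 0.19 and 1.98 in the D2 livers, a difference of 2.00 (SE 0.32, adjusted p 0.056). Mouse 12 was nearest to the vehicle, and without it Cd74 was called (change 2.51, adjusted p 0.0021). Clec4n, the Dectin-2 receptor for fungal mannans, differed by 1.33, the leukocyte adhesion gene Jaml by 1.72, and P2ry6, a pyrimidine nucleotide receptor, by 1.01 (adjusted p 0.056, 0.056 and 0.066). Insl6, an insulin-like peptide gene well above background in only 1 of 4 vehicle livers, differed by 1.94 and Ccno, a cyclin of multiciliated cells, by 0.98 (adjusted p 0.059 and 0.056). Mmp13, a collagenase, had no signal well above background in the vehicle livers and was at least 1.40-fold higher in the D2 livers (adjusted p 0.059). On the lower side were Qpct, the glutaminyl cyclase, at -0.77, and Mmd2 at -2.03 (adjusted p 0.059 and 0.066).

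The AhR itself and its partners came next. Ahr had a difference of 0.52 (SE 0.19, adjusted p 0.36), with 0.84, 0.46, 0.53 and 0.66 in the vehicle livers and 0.58, 1.52 and 1.33 in the D2 livers, so that mouse 11 lay inside the vehicle range, and without mouse 11 Ahr was called (0.81, adjusted p 0.032), while without mouse 12 it differed by 0.33. Of 6 tested genes of the receptor complex 0 were called, with Ahr alone at an unadjusted p under 0.05. The dimerisation partner Arnt differed by 0.01, and the chaperone Hsp90ab1 by -0.02.

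None of the 10 genes of the AhR target list was called, although 7 were higher at an unadjusted p under 0.05, against 5.16% of all probes, and 5 had all D2 livers above all vehicle livers. The list's median change was 1.04, also with the 3 genes that had only a bound set to it, and 0.59 without mouse 12. It was 0.31 in mouse 11, 1.90 in mouse 12 and 0.67 in mouse 13. Cyp1a1, the hydrocarbon-oxidising enzyme induced by AhR ligands, had no signal well above background in the vehicle livers, at 0.23, -0.06, -0.0014 and -0.09. It had 3.73, 7.15 and 6.26 in the D2 livers (SD 1.77, n = 3) and was at least 33.0-fold higher there. It was not called (adjusted p 0.11). The estimate of its spread was shared by all liver groups, with 4.61 and -0.017 in the low-dose and 2.62 to 7.05 in the high-dose livers. Cyp1b1, the extrahepatic member of the family, was also not well above background in the vehicle livers (-2.73, -2.78, -2.69 and -2.65). It had -0.86, 2.27 and -0.21 in the D2 livers and was at least 8.29-fold higher (adjusted p 0.11).

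Ahrr had -0.69, -0.41, -0.35 and -0.35 in the vehicle livers, all without signal well above background, and 0.42, 2.11 and 0.50 in the D2 livers, at least 2.35-fold higher (adjusted p 0.18). Its promoter, printed above, holds the core letters most often. Tiparp, the mono-ADP-ribosyltransferase that turns the receptor off, differed by 0.95 on its brightest probe and 0.83 on another (adjusted p 0.22 and 0.31), with -2.012, -0.96 and -2.001 in mice 11, 12 and 13. Nqo1, the quinone reductase, differed by 1.12 (SE 0.34, adjusted p 0.29), with -1.09, 0.69 and -0.80 in mice 11, 12 and 13. On Cyp1a1, Cyp1b1, Ahrr, Tiparp and Nqo1 mouse 12 was highest and mouse 11 lowest of the D2 livers. Without mouse 12 the difference was 0.61 for Tiparp and 0.58 for Nqo1. Without mouse 11, Cyp1a1, Cyp1b1 and Ahrr were called (adjusted p 0.038, 0.030 and 0.048), and none of the other 6 fits without 1 array called them.

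Cyp1a2 and Aldh3a1 had overlapping groups. Cyp1a2, the constitutive hepatic member, had 6.105, 6.42, 6.26 and 6.34 in the vehicle livers and 6.29, 6.30 and 6.69 in the D2 livers. The change was 0.15 (SE 0.16, adjusted p 0.77). The sign turned with log ratios as given by the scanner software (-0.099). Aldh3a1, an aldehyde dehydrogenase, differed by -0.10 (adjusted p 0.81). The conjugation genes Gsta1 and Ugt1a6b differed by 1.19 and 0.49 (adjusted p 0.32 and 0.40), also with overlapping groups.

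**Figure D2:**
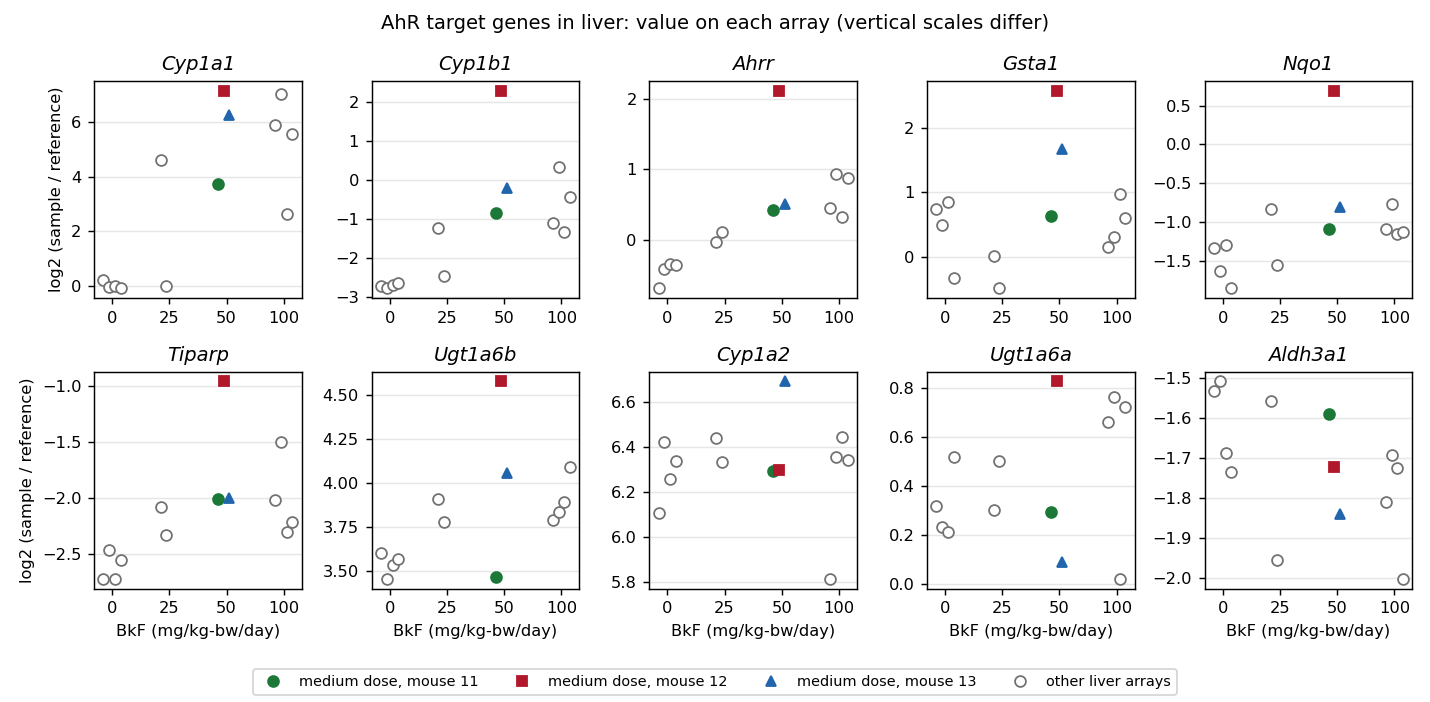
Log2 ratio of liver over reference RNA (vertical axis, own scale in each panel) on each liver array for the 10 AhR target genes, by BkF dose in mg/kg-bw/day (horizontal axis). Each point is 1 mouse, and Cyp1a1 lay at 3.73 or above in the 3 medium-dose livers and at 0.23 or below in the vehicle livers, whereas Cyp1a2 overlapped between the doses.

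The low- and high-dose comparisons use the same vehicle arrays as the medium dose, so their values are given only side by side. Among the high-dose livers, which also enter the shared estimate of the spread, that of mouse 17 had mean log2 ratios, relative to the median liver array, of 4.65 for the skeletal muscle, 3.97 for the white fat and 1.28 for the pancreas markers, and that of mouse 20 had 2.35 for white fat. Without mouse 17 in the fit 14 probes were called at the medium dose, 10 of them among the 13. Tlr12 differed from vehicle by 0.71, 1.62 and 1.56 at the low, medium and high dose, and Adamdec1 by 1.46, 1.89 and 2.29. Cd36 differed by 1.46, 2.47 and 1.60 in this order, and Slc13a2 by -1.35, -3.12 and -2.11. Nqo1 differed by 0.33, 1.12 and 0.49 and Tiparp by 0.41, 0.95 and 0.60. For the AhR genes without vehicle signal well above background only the medium- and high-dose bounds are given, at least 33.0- and 24.0-fold for Cyp1a1, 8.29- and 3.86-fold for Cyp1b1 and 2.35- and 1.92-fold for Ahrr. Retsat differed by -0.49, -0.81 and -0.92. At the low dose the 2 livers had 4.61 and -0.017 for Cyp1a1, 1 high and the other at the vehicle level. Of the 13 called probes 7 were also called at the high dose, where 16 of all probes were called, and no probe of the array was called at the low dose.

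Among the other gene lists, chosen for liver and hydrocarbon biology, no list had more than 1 called gene, and the calls were Cd36 among the PPAR alpha targets and Retsat among the retinoid genes. The lists differed in their medians, against a median of -0.0056 over all probes. Over all probes 5.16% were higher at an unadjusted p under 0.05 and 4.51% had all D2 livers above all vehicle livers. Of the 10 tested MHC class II genes 7 were higher at that p and 5 had all D2 livers above, with a median of 0.85. Of 22 cell proliferation genes 14 were higher at an unadjusted p under 0.05, with a median of 0.34. The ribonucleotide reductase subunit Rrm2 (0.80, adjusted p 0.092) and the mitotic gene Birc5 (1.04, adjusted p 0.19, with 0.25 on its other probe) had the lowest p-values. Of 25 cholesterol synthesis genes 9 were higher at an unadjusted p under 0.05, with a median of 0.49 that was 0.14 without mouse 12.

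**Figure D3:**
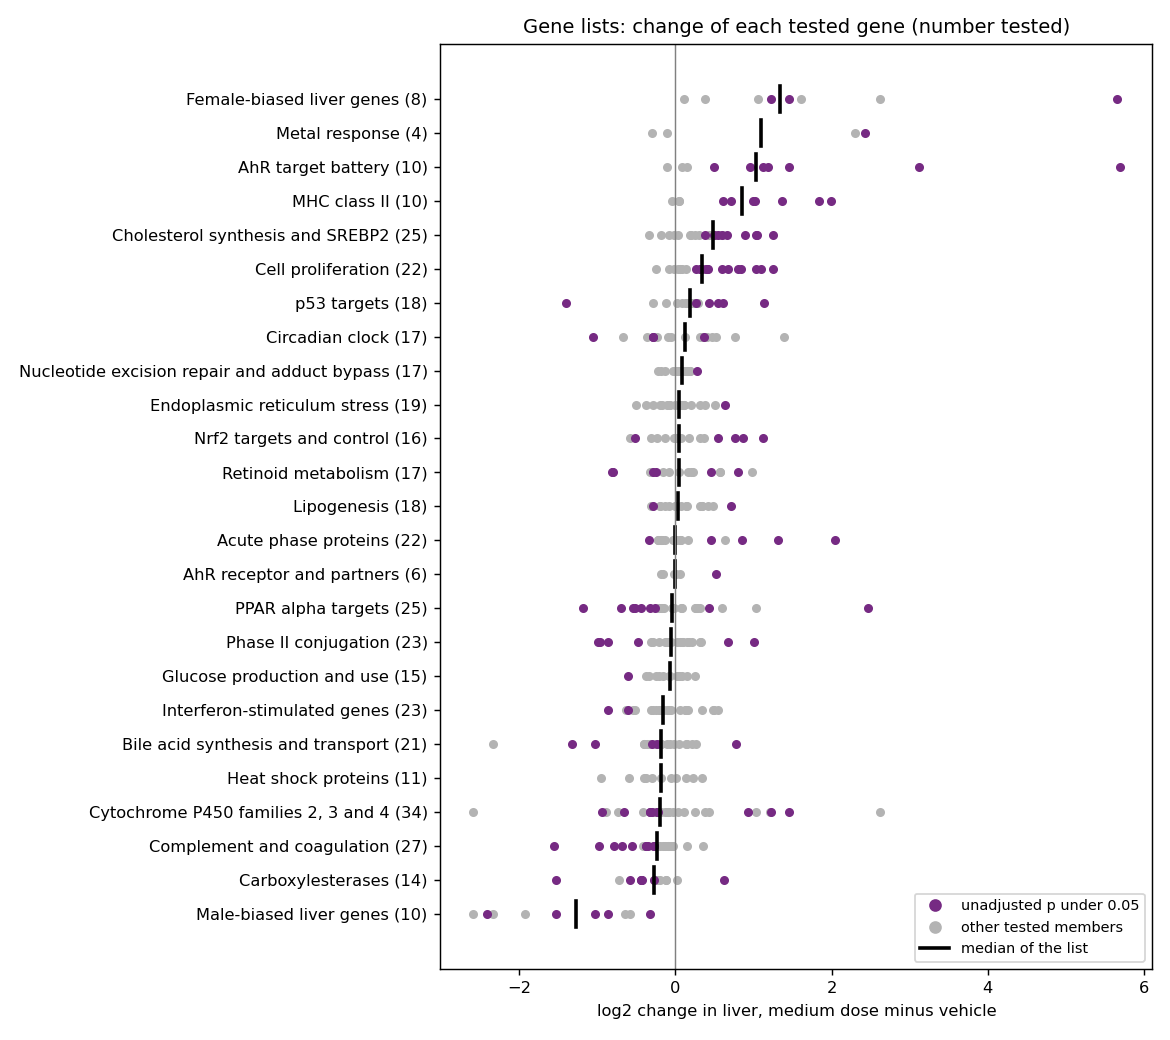
Log2 change in liver, medium dose minus vehicle (horizontal axis), of every tested gene of 25 lists (rows, with the number tested), with vertical bars for list medians and purple points for genes at an unadjusted p under 0.05. Medians ran from -1.28 for male-biased to 1.34 for female-biased liver genes, with AhR targets at 1.04 and MHC class II at 0.85.

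Some lists of liver function had medians below that of all probes. Of 27 complement and coagulation genes 25 were lower, 10 of them at an unadjusted p under 0.05 against 5.55% of all probes, with a median of -0.23. The lowest p-values were those of Plg, which encodes plasminogen (-0.37, adjusted p 0.30), and Hc, which encodes complement C5 (-0.68, adjusted p 0.31), whose groups overlapped. Of 14 carboxylesterases, which hydrolyse esters of drugs and lipids, 6 were lower at an unadjusted p under 0.05 and 1, Ces2b, was higher, with a median of -0.27 that was -0.15 without mouse 12. The bile acid list had a median of -0.18, and Cyp8b1, the sterol 12-alpha-hydroxylase that sets the cholic acid share, differed by -1.33 (adjusted p 0.14). Fabp1, the hepatic fatty acid-binding protein, differed by -0.51 (adjusted p 0.21) and G6pc, the last enzyme of glucose production, by -0.61 (adjusted p 0.18). The median over 12 hepatocyte markers was -0.23, and 11 of them were lower. Their mean log2 ratio, relative to the median liver array, was -0.10, -0.31 and -0.056 in mice 11, 12 and 13. The vehicle livers had 0.040 to 0.22, above all D2 livers. The part of this difference in the lists above was not tested.

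The stress, defence and remaining detoxification lists held no called gene. The 16 tested Nrf2 genes, which answer oxidative stress, had a median of 0.043 with 4 higher and 1 lower at an unadjusted p under 0.05, and Nfe2l2, which encodes Nrf2 itself, differed by 0.86 (adjusted p 0.18). The 22 acute phase genes had a median of -0.0042, and Lcn2, an iron-sequestering lipocalin, differed by 2.04 with overlapping groups (adjusted p 0.32). The 19 endoplasmic reticulum stress genes had a median of 0.044, the 11 heat shock genes -0.19 and the 23 interferon-stimulated genes -0.16. Without mouse 12 these 3 medians were 0.22, 0.14 and 0.12, so that the last 2 changed sign. Of the 34 tested genes of cytochrome P450 families 2, 3 and 4, 23 were lower, 7 of them at an unadjusted p under 0.05, and 3 others were higher at that p, with a median of -0.19. The extremes of that list, Cyp3a44 at 2.62 and Cyp4a12a at -2.59, rested on mouse 12, whose values follow with the other sex-biased genes. The 23 conjugation genes had a median of -0.051, with the glutathione transferases Gsta2 at 0.68 and Gstp1 at -0.97 (adjusted p 0.25 and 0.37). Gstp1 had 3.79, 2.12 and 3.11 in mice 11, 12 and 13, and its difference was -0.52 without mouse 12. The 17 circadian clock genes had a median of 0.13, and Nfil3, a transcriptional repressor, differed by -1.05 with groups apart (adjusted p 0.29).

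Among genes of the DNA damage response none was called. Of 18 tested p53 targets 5 were higher and 1 lower at an unadjusted p under 0.05, with a median of 0.18. Mdm2, the ubiquitin ligase of p53, differed by 0.13 and Ccng1, a cyclin induced by p53, by 0.26 (adjusted p 0.67 and 0.42). Cdkn1a, the cell cycle inhibitor p21, differed by 1.14 (adjusted p 0.34), with -2.56, -0.74 and -2.39 in mice 11, 12 and 13. Without mouse 12 the Cdkn1a difference was 0.56, and on another probe it was 0.23. Gdf15, a stress cytokine, was lower by 1.40 with its groups apart (-1.40, adjusted p 0.26). Of 17 excision repair and bypass genes 1 passed an unadjusted p under 0.05, the damage sensor Xpc at 0.28.

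The D2 livers differed most from each other in gene groups chosen here after their values were seen. In mouse 12 several genes that are higher in male than in female mouse liver lay far below the vehicle livers and mice 11 and 13. Cyp4a12a, the male arachidonic acid hydroxylase, had 8.94 and 8.68 in mice 11 and 13, and 8.50, 9.08, 8.98 and 9.12 in the vehicle livers, but 1.36 in mouse 12. Slco1a1, an organic anion transporter, had 0.29 in mouse 12 against 6.44 to 6.93 in the other D2 and the vehicle livers, and Hsd3b5, a male steroid dehydrogenase, 0.21 against 6.19 to 6.81. The median difference from the vehicle mean over the 10 male-biased genes was -3.005 in mouse 12, -0.21 in mouse 11 and -0.21 in mouse 13, and without mouse 12 the list's median change was -0.20 instead of -1.28.

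Several genes that are higher in female liver lay above the vehicle livers and mice 11 and 13 in mouse 12. Cyp3a44 had 7.91 in mouse 12 and at most 0.83 in the other D2 and the vehicle livers, and Prom1 had 5.45 against at most 1.78. The median over the 8 tested female-biased genes was 3.32 in mouse 12, 0.065 in mouse 11 and 0.28 in mouse 13, and without mouse 12 the list's median change was 0.26 instead of 1.34. The Y-linked gene Eif2s3y had 2.06 in mouse 12 and 1.87 to 2.41 in the vehicle livers, and Xist was not well above background on any of the 7 arrays.

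Mouse 12 also stood apart in the metallothioneins, which bind zinc and cadmium. Mt1 had 2.02 and Mt2 2.30 there, against -4.22 to -3.02 and -4.16 to -3.31 in the other D2 and the vehicle livers. The collagen gene Col1a1 had -2.04 in mouse 12 and -5.62 and -4.92 in mice 11 and 13. Cd5l and Vsig4, both markers of resident Kupffer cells, had 2.64 and 4.38 in mouse 12, below their vehicle ranges of 5.91 to 6.75 and 5.75 to 6.18. Of the 17 tested macrophage markers 5 lay above all vehicle livers in all 3 D2 livers, among them Marco and Cx3cr1, while Adgre1, Csf1r and Clec4f were, like Cd5l and Vsig4, below every vehicle liver in mouse 12. Marco had 2.86, 4.64 and 3.77 in mice 11, 12 and 13 against at most 2.56, and Cx3cr1 had 1.39, 2.44 and 1.52 against at most 0.96. Cd5l was also below the vehicle range in mouse 13, at 5.71.

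Mouse 13 differed by neutrophil genes. The mean log2 ratio of 7 tested neutrophil markers, relative to the median liver array, was 2.73 in mouse 13, 0.62 in mouse 12, 0 in mouse 11 and -0.30 to 0.038 in the vehicle livers. S100a9, a calcium-binding protein of neutrophil granules, had 3.14, 4.46 and 7.12 in mice 11, 12 and 13, and the antimicrobial peptide gene Camp had 0.16, 0.56 and 4.39. The granule protein genes Ngp and Ltf, not well above background in the vehicle livers, had 1.67 and 2.00 in mouse 13. In bulk liver a larger number of such cells and more RNA per cell cannot be told apart.

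**Figure D4:**
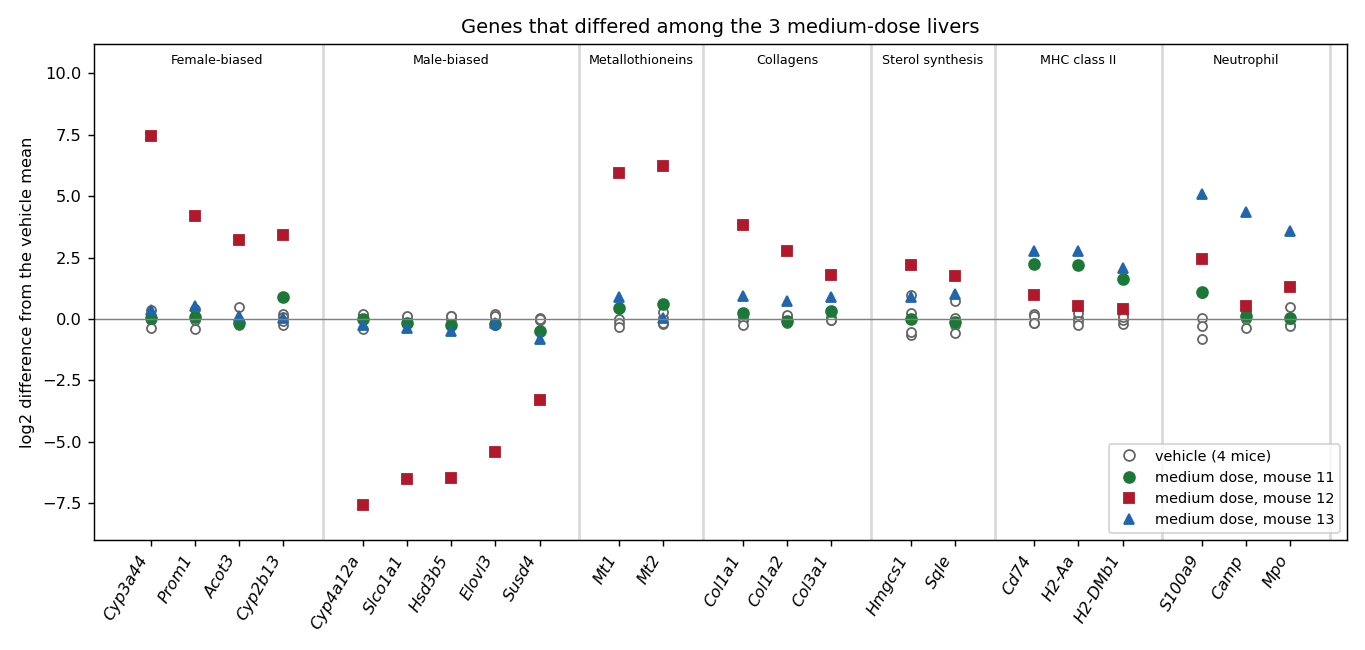
Log2 difference from the vehicle mean (vertical axis) of selected genes, grouped by list, on each array. Open circles are the 4 vehicle livers and filled symbols the medium-dose livers: mouse 12 stood apart in sex-biased genes, metallothioneins and collagens, mouse 13 in neutrophil genes, and MHC class II genes were higher in mice 11 and 13 than in mouse 12.

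The other cell type lists bear on the immune genes above. The macrophage list, 17 tested markers, had 14 higher, with levels of 0.24, -0.23 and 0.53 in mice 11, 12 and 13 against -0.27 to 0 in the vehicle livers. Adamdec1 belongs to it, as do Marco, a scavenger receptor (difference 1.58), and Cx3cr1, the fractalkine receptor (1.27, with 0.15 on its other probe). The T cell and B cell lists lay between -0.28 and 0.12 in the D2 livers and -0.21 and 0.16 in the vehicle livers. The stellate cell and collagen list had levels of -0.086, 1.19 and 0.32 in mice 11, 12 and 13 against -0.15 to 0 in the vehicle livers. Skeletal muscle, fat, pancreas and lung lists lay between -0.27 and 0.20 on the D2 arrays. The part of these lists in the calls was not tested.

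Whether the medium dose changed liver and lung differently was asked by an interaction over the 26083 probes kept in both tissues. The interaction was called for 4 probes (0.0153%), with 1824 at an unadjusted p under 0.05. Cd36 rose in liver and differed by -0.51 in lung, a difference between tissues of 2.97 (SE 0.45, adjusted p 0.016). Slc13a2 fell in liver and differed by -0.02 in lung, a difference of -3.10 (adjusted p 0.034). The vehicle lungs had 1.02, 0.61, 1.26 and 0.16 for Slc13a2, near the D2 livers at 1.56, 0.49 and 0.57. Whether a fall of the liver's size could be seen in lung was not tested. The other called probes were both from Osbpl3, an oxysterol-binding protein gene, which lay outside the naming rule and was named after its values were seen (differences of 1.56 and 1.80, both adjusted p 0.028). Leaving out the liver array of mouse 11 gave 114 calls. Leaving out that of mouse 2, 4 or 13, or the lung array of mouse 3, gave 0, with 1741, 1587, 1887 and 1654 probes at an unadjusted p under 0.05.

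For Cyp1a1, Cyp1b1 and Ahrr the change in liver is known only as a bound, so their difference between the tissues is not given. In lung, limma called all 3 genes (adjusted p 0.0048, 0.00029 and 2.5e-05). Tff3 and Cyp1a2 were not kept for testing in lung.

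**Figure D5:**
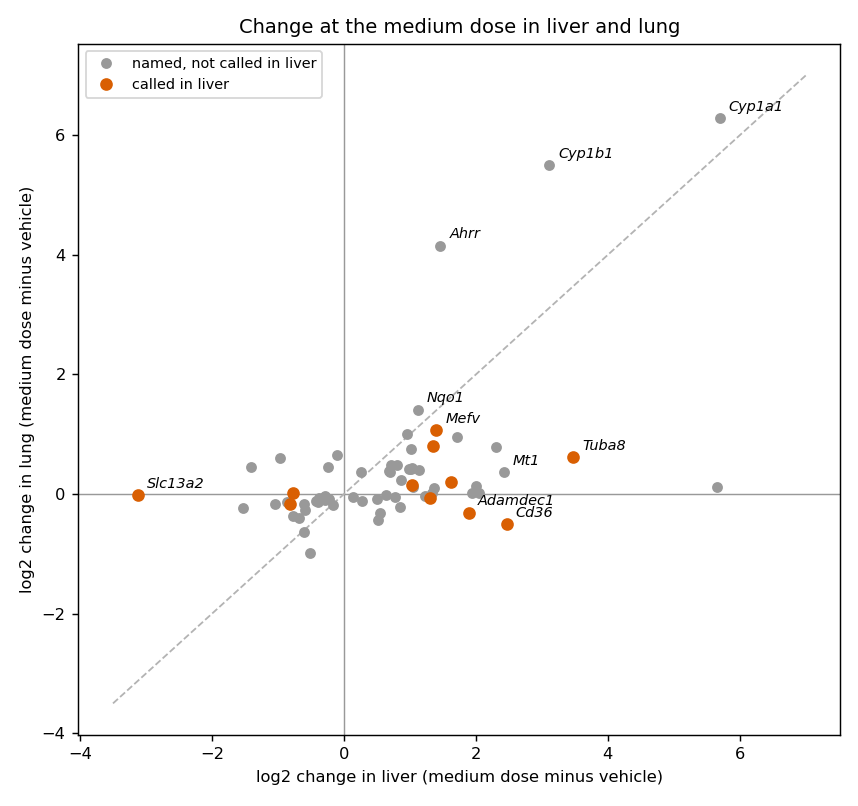
Log2 change at the medium dose in liver (horizontal axis) and in lung (vertical axis) of the genes tested in both tissues, with orange points for probes called in liver and a dashed line of equal change. Probes without vehicle signal well above background, among them Cyp1a1, Cyp1b1 and Ahrr, are drawn at their measured values, which are no exact changes. Cd36 lay at 2.47 and -0.51, and Slc13a2 at -3.12 and -0.02.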

How the data were processed

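Liver and lung RNA was labelled with Cy5 and Universal Mouse Reference RNA with Cy3 on Agilent 8 x 60K arrays, with no dye swap. The authors deposited Feature Extraction output (version 11.0.1.1 for liver, 10.7.3.1 for lung), from which the median intensity of each spot in both channels was used. The log10 ratios deposited per the file headers, from the scanner software, served as an alternative. Log2(red/green) was loess-normalized within each array with limma 3.58.1 in R 4.3.3, control and outlier spots were left out, and spots of a probe were averaged, giving 55681 probes, 26413 of them with a symbol through RefSeq accessions. Probes well above background on at least 2 liver arrays were kept (30468; at least 3 arrays in lung). The study used MAANOVA; limma was used here, with all 13 liver arrays in 1 model and Benjamini-Hochberg adjustment over the kept probes. The interaction model held 13 liver and 15 lung arrays. Probes measured on no array of a group were given as bounds from Aquantile-normalized channel signals against the lowest signal well above background. The fit was also run on simulated data, and its outcome there is not reported here. P-values set a difference against a spread estimated over all groups in the model. Each mouse has 1 array per tissue, so differences between mice and between arrays are mixed in that spread. Precision is limited by the number of arrays.

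Named genes were all called probes, fixed AhR and p53 genes, the 2 genes with the lowest p in each list, and the 10 uncalled probes nearest to the threshold with groups apart. Genes printed for differences among the medium-dose mice, other list members and sex-linked genes were picked after their values were seen. The brightest probe stood for a gene in the lists, whereas the shares over all probes count every kept probe, also unnamed ones and several per gene. Members and lists were chosen with earlier results of these data known. Mouse numbers in the labels pair liver and lung of the same animal. Their deviations from group means correlated by -0.033 to 0.18 over 7 pairs. The liver columns of the processed table, whose rows do not match the probe names, and the forestomach arrays were not used here. Alternatives were a fit on 7 arrays, the slide as a block, array weights, an intensity trend with a robust prior, scanner ratios, normexp correction on median signals (offset 50), Aquantile scaling, other filters and leaving out each array. Leaving out high-dose mouse 17 was chosen after seeing the data. A few genes are not reported here.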

Additional observations from a re-analysis of the deposited data

Results flagged for a closer look

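A test of the difference between tissues marked 2 of the genes called in liver. The medium-dose change in liver minus that in lung was 2.97 for Cd36 and -3.10 for Slc13a2. For Slc13a2 the vehicle lungs lay near the level of the D2 livers. In the vehicle group, the only liver group of the comparison with 4 arrays, 3 of 77 named probes had a sample far from the other 3 by Dixon's criterion, and chance flags about 1 in 20 groups. Mefv had 0.57 in vehicle mouse 4 against at most 0.12 in the others. The unnamed probe A_55_P2177410 had 1.98 in vehicle mouse 4 against at most 1.71 in the others. Cyp8b1, the sterol 12-alpha-hydroxylase gene, had 6.90 in vehicle mouse 3 against at most 6.17 in the others.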

How the results depend on the processing

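The 13 calls at the medium dose became 4 in the fit on the 7 arrays alone, 1 with the slide as a block, 2 with array weights and 21 with the stricter filter. Leaving out 1 array gave between 0 and 156 calls. The counts with an intensity trend and robust prior (11), scanner ratios (9), normexp (16), Aquantile (13), no filter (13) and without high-dose mouse 17 (14) stayed within 1.5 times of 13, but scanner ratios shared only 3 of the 13 probes. The 4 interaction calls became 1 on the vehicle and medium-dose arrays alone, 13 with scanner ratios and 9 with no filter, and between 0 and 114 when 1 array was left out. With the mouse as a replicate block, the paired analysis of liver and lung, the same 4 probes were called. Liver groups share no mouse numbers, so no paired fit of dose was possible. Over all named probes and alternatives, 1 value changed sign, Cyp1a2 at -0.099 with scanner ratios. The causes were not tested. No array of the medium dose can be left out without moving the count by more than 1.5 times.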
